A study of Mus musculus with 7 samples.

Results

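The VEGF and angiopoietin axis is taken here as 10 genes, *Vegfa*, *Vegfb*, *Vegfc*, *Pgf*, *Kdr*, *Flt1*, *Flt4*, *Tek*, *Angpt1* and *Angpt2*, chosen by name from the 38026 genes of an expression table of mouse pancreatic ductal adenocarcinoma (PDA) tumors. All 10 were present and all 10 passed the filter on low values, which left 21322 genes for testing. RNA was sequenced from 7 subcutaneous tumors that had grown for 2 weeks in C57BL/6 mice without treatment. The cancer cells were of line 1242, derived from a pancreatic tumor of an engineered mouse in which Pdx1-Cre acts in the pancreas, and all of them carried Cas9 with a guide RNA, delivered by lentivirus and selected with puromycin. The guide was scrambled in 4 tumors (sgScramble, libraries 1 to 4) and directed against the keratin gene *Krt19* in 3 tumors (sgKrt19, libraries 5, 6 and 8). Editing was done in the cancer cells before inoculation, so the vessels and other host cells of the tumors were not edited. The study made both polyclonal lines and single-cell clones, and the labels do not say which of these, or which guide, the sequenced tumors carried. The comparison addresses how transcripts for vessel-forming signals differ between tumors of *Krt19*-edited and control cancer cells.

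VEGF-A, the main driver of blood vessel growth, signals through the receptor VEGFR2 (*Kdr*) on endothelial cells, while VEGFR1 (*Flt1*) binds VEGF-A, VEGF-B and placental growth factor (*Pgf*) and, in a soluble form, acts as a decoy. VEGF-C is the principal ligand of VEGFR3 (*Flt4*), the receptor of lymphatic vessels, which growing blood vessels also use. Angiopoietin-1 activates the receptor TIE2 (*Tek*) and stabilizes vessels, and angiopoietin-2, released by endothelial cells, acts on the same receptor mostly as a context-dependent antagonist. Tumors that outgrow their oxygen supply commonly raise *Vegfa* through hypoxia-inducible factors.

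Libraries held 40781199 to 44972100 reads, and 3.02% to 4.74% of the reads were mitochondrial. Expression is given as normalized read counts, obtained by dividing the reads of a gene by the size factor of its library, and ± denotes the SD between tumors of a group. A count of 3 reads corresponded to a value of 2.74 to 3.47, and this floor covers counting error only because reads carried no molecular identifiers. The edited gene followed its labels. *Krt19* was at 17841 to 27618 in the 4 sgScramble tumors and at 1606 to 2470 in the 3 sgKrt19 tumors, which is −3.52 as a log2 fold change (limma adjusted p = 1.74e-05). The labels do not state that each library came from its own mouse, so p-values measure the spread between these samples. The epithelial keratin *Krt8* marked the tumors as carcinoma at 46646 to 112985, and the endothelial marker *Pecam1* was at 1079 to 1865. Skeletal muscle transcripts separated the groups. The summed level of 13 muscle genes was 7.45 to 76.7 CPM (reads scaled to a common library total) in sgScramble tumors, with sgScramble 3 far above the other 3 controls, and 557 to 760 CPM in sgKrt19 tumors.

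Promoter sequences are shown for the 2 VEGF-A receptors and for the ligands with the largest (*Vegfc*) and the smallest (*Vegfa*) called change, since the results turn on these 4 genes. Each is the 250 bases upstream of the gene start in RefSeq (GRCm38.p6), read on the strand of the gene, in lower case with each GC box in capitals. A GC box, the site known for binding of SP family factors, was searched as the letters GGGCGG on both strands.

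*Kdr* promoter, chr5:75978456-75978705, minus strand: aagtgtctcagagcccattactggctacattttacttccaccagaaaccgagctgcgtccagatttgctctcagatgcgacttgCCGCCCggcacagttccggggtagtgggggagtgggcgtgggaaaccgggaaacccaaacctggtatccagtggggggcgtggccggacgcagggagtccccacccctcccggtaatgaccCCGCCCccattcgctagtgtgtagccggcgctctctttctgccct
*Flt1* promoter, chr5:147726012-147726261, minus strand: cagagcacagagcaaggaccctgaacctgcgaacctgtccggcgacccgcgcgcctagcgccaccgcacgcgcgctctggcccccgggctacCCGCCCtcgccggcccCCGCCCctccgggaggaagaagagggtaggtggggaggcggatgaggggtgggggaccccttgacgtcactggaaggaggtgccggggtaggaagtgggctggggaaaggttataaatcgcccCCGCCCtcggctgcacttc
*Vegfc* promoter, chr8:54077282-54077531, plus strand: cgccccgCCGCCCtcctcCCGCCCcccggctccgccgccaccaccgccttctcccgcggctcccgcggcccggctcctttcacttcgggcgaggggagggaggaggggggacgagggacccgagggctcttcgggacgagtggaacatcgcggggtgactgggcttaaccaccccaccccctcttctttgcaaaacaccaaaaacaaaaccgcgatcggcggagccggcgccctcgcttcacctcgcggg
*Vegfa* promoter, chr17:46032378-46032627, minus strand: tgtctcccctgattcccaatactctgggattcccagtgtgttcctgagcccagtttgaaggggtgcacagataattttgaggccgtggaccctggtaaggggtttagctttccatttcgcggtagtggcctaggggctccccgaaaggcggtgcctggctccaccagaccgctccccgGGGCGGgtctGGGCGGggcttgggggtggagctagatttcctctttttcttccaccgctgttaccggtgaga

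These windows held 2 GC boxes for *Kdr*, 3 for *Flt1*, 2 for *Vegfc* and 2 for *Vegfa*. The RefSeq table covered 8 of the 10 genes with 10 start windows, and 8 of the 10 windows held a GC box, compared with 32.7% of 32851 windows over all genes. The core of the hypoxia response element, searched as ACGTG or GCGTG on both strands, was present in 5 of the 10 windows, against 38.6% of all windows. These 5 included *Kdr*, with 2 matches, and *Flt1*, with 1, but not the *Vegfa* window shown. Another *Vegfa* start window, chr17:46025164-46025413, was among the 5, with 2 matches. The ETS core, searched as AGGAAG or CGGAAG on both strands, was found in the *Flt1* window alone, with 2 matches, against 39.2% of all windows. No match of 1 motif overlapped a match of another. The windows of *Vegfc* (71.6% GC) and *Flt1* (70.4% GC) were richer in G and C than the median over all windows, 52.4%. A match describes letters in a window and not a bound site, and angiopoietin windows were not analysed here.

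The transcripts of 3 VEGF ligands were lower and that of the receptor *Kdr* was higher in sgKrt19 tumors. Of the 10 genes, *Kdr* rose and *Vegfa*, *Vegfb* and *Vegfc* fell, while *Pgf*, *Flt1*, *Flt4*, *Tek*, *Angpt1* and *Angpt2* did not pass the test. The 4 called genes were read against a table in which 34.0% of all genes tested were called, 17.9% as higher and 16.0% as lower. The same 4 genes had no overlap between the groups, as did 41.1% of all genes tested. The share of members called was thus near the background, and the sizes and directions of single genes are what follows. In bulk tumors a change in the number of cells of a type and a change in RNA per cell cannot be told apart. The median log2 fold change was −0.0075 over the 10 genes and 0.0072 over all genes tested.

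**Figure D1:**
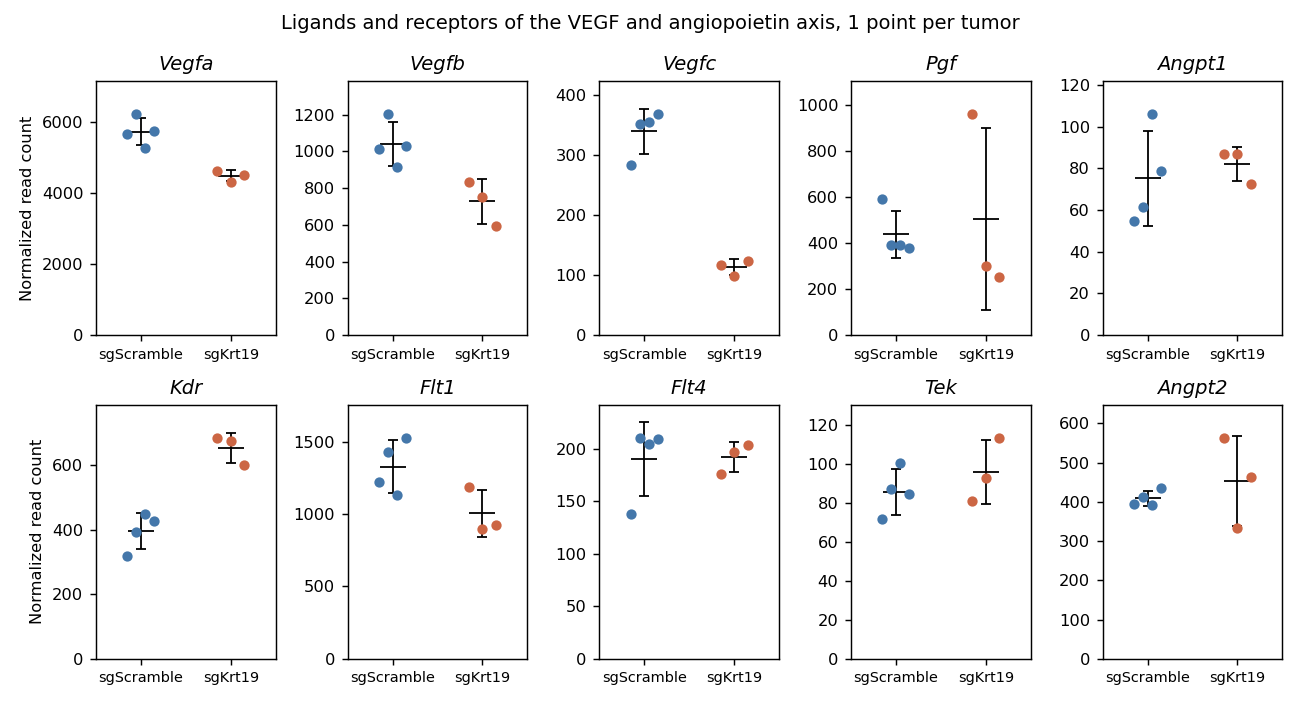
Normalized read counts (vertical axes, each from 0) of the 10 genes, with 1 point per tumor, a horizontal bar at the group mean and whiskers of 1 SD. The groups are apart for *Vegfa*, *Vegfb*, *Vegfc* and *Kdr*, and 1 sgKrt19 tumor at 960 stands above the other 6 for *Pgf*.

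*Vegfc*, on the plus strand of chromosome 8 at 54077606 to 54187096 (GRCm38), had the largest change of the 10. Its values were 284, 352, 355 and 368 in the sgScramble tumors and 117, 98.0 and 124 in the sgKrt19 tumors. All sgKrt19 values were far below the lowest control value, and the group mean fell from 340 ± 37.8 to 113 ± 13.4, or 33.2% of control. The log2 fold change was −1.58 (95% interval −1.94 to −1.23, limma adjusted p = 0.000128), and it stayed between −1.66 and −1.48 when any single library was left out.

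VEGF-C is secreted as a precursor that is cut by the protease ADAMTS3 with the help of the secreted cofactor CCBE1, and both transcripts were lower as well. *Ccbe1* was at 646, 723, 477 and 711 in sgScramble and at 224, 144 and 177 in sgKrt19 tumors. The groups were far apart and on the log2 scale *Ccbe1* fell by 1.81 (SE 0.195, limma adjusted p = 0.000181). *Ccbe1* shares 2.95% of its exon bases with an antisense gene. *Adamts3*, given here after its values were seen, was near the detection limit and did not pass the filter on low values. It had 8, 7, 8 and 6 reads in the sgScramble libraries and 0, 1 and 0 reads in the sgKrt19 libraries, which all lay below the floor of 3 reads per library. Against that floor the *Adamts3* value was at least 2.12-fold lower in sgKrt19 tumors. Another ligand of the same receptor, *Vegfd*, was at 95.7, 123, 90.4 and 103 in sgScramble and at 41.6, 67.0 and 103 in sgKrt19 tumors, and its log2 fold change of −0.62 did not pass the test (adjusted p = 0.115). Leaving out single libraries gave −0.94 to −0.30 for *Vegfd*, the smallest change without sgKrt19 5, and it passed the test only without sgKrt19 8 (limma adjusted p = 0.0286). The extracellular protein SVEP1, which takes part in lymphatic development, had a log2 fold change of −0.33 (adjusted p = 0.352).

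The VEGF-C receptor did not pass the test in either direction. *Flt4* (chromosome 11, 49609263 to 49652739, plus strand) was at 137, 210, 205 and 210 in sgScramble and at 176, 197 and 204 in sgKrt19 tumors. The sgKrt19 values fell inside the control range, where sgScramble 1 was the low tumor. The log2 fold change of 0.031 had an interval of −0.38 to 0.45 (adjusted p = 0.911), was −0.18 when only library size was used for scaling and was −0.12 without sgScramble 1. *Prox1*, the transcription factor that defines lymphatic identity, did not exceed 10 reads in a library and was not tested. Its values, near the floor, were 0.93, 1.98, 3.65 and 2.78 in sgScramble and 4.62, 10.0 and 6.30 in sgKrt19 tumors. These groups did not overlap, as was so for 41.1% of all genes tested. *Lyve1*, a hyaluronan receptor of lymphatic endothelium and of some macrophages, was at 14.8 to 65.0 in sgScramble and 20.0 to 51.5 in sgKrt19 tumors, with overlapping groups. *Pdpn*, a membrane glycoprotein of lymphatic endothelium that other cells also make, was at 276 to 499 in sgScramble and 386 to 512 in sgKrt19 tumors, again overlapping, and had a log2 fold change of 0.18 (adjusted p = 0.509). *Reln*, at 2.79 to 19.8 and 9.45 to 13.9, had 0.80 (adjusted p = 0.276). The chemokine transcript *Ccl21a* was the 1 of 5 tested lymphatic genes, *Flt4* among them, that rose, from 5.82 ± 3.21 to 28.6 ± 12.2. Over all genes tested 17.9% were called as higher. *Ccl21a* passed the filter on low values only through the sgKrt19 tumors, which favoured a rise. Its values are also uncertain because it has near-identical copies in the genome. The median log2 fold change of the 5 was 0.18. The number of lymphatic genes called as higher was 2 without sgScramble 2, and 0 when the filter required a value of 50.

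*Vegfa* (chromosome 17, 46016993 to 46032369, minus strand) was at 5672, 6220, 5274 and 5747 in the sgScramble tumors and at 4614, 4310 and 4517 in the sgKrt19 tumors. All 3 sgKrt19 tumors lay below all controls, and the mean fell from 5728 ± 388 to 4480 ± 155. The log2 fold change of −0.35 (interval −0.58 to −0.13, limma adjusted p = 0.0225) was small beside that of *Vegfc*. It lost its call when sgScramble 2, sgScramble 4, sgKrt19 6 or sgKrt19 8 was left out, with values of −0.31, −0.35, −0.32 and −0.36 and adjusted p from 0.0516 to 0.0787. *Vegfb* (chromosome 19, 6982473 to 6987651, minus strand) encodes a ligand of VEGFR1 with little direct effect on vessel growth. It was at 1014, 1202, 912 and 1030 in sgScramble and at 836, 750 and 596 in sgKrt19 tumors. These groups did not overlap either, and the log2 fold change was −0.52 (interval −0.84 to −0.20, limma adjusted p = 0.0203). The *Vegfb* call was lost without sgScramble 2, at −0.45 (adjusted p = 0.0630), or without sgKrt19 8, at −0.39 (adjusted p = 0.0750). The log2 difference between *Vegfa* and *Vegfb* within a tumor averaged 2.47 ± 0.068 in sgScramble and 2.63 ± 0.248 in sgKrt19 tumors, with overlapping groups (exact two-sided permutation p = 0.4, adjusted over 8 differences 0.533).

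*Pgf* (chromosome 12, 85166635 to 85177790, minus strand) varied more between sgKrt19 tumors than any other member. Its values were 592, 390, 393 and 378 in sgScramble and 960, 298 and 253 in sgKrt19 tumors. The tumor sgKrt19 5 was above every control and the other 2 were below every control. The log2 fold change of −0.046 (interval −0.92 to 0.83, adjusted p = 0.938) therefore had no stable direction. It was 0.17 by edgeR and 0.18 by DESeq2 on the same reads, and −0.65 without sgKrt19 5, where it passed the test (limma adjusted p = 0.0497). Without sgScramble 1, sgKrt19 6 or sgKrt19 8 it was 0.11, 0.20 and 0.31. The same tumor also had the highest value of *Angpt2*, of the tight junction gene *Cldn5* at 849 and of the glucose transporter *Slc2a1* at 7009. *Cldn5* was at 228 to 369 and *Slc2a1* was at 3189 to 5727 in the other 6 tumors. The part of these transcripts in the *Pgf* value was not tested.

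*Kdr* (chromosome 5, 75932827 to 75978458, minus strand) was the 1 member that rose. Its values were 320, 393, 449 and 427 in the sgScramble tumors and 686, 676 and 602 in the sgKrt19 tumors. The lowest sgKrt19 value was well above the highest control, and the mean rose 1.65-fold, from 397 ± 56.2 to 654 ± 45.9. The log2 fold change was 0.73 (interval 0.41 to 1.05, limma adjusted p = 0.00424). Leaving out any single library gave 0.63 to 0.79.

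*Flt1* (chromosome 5, 147561604 to 147726011, minus strand) pointed the other way. It was at 1223, 1429, 1133 and 1526 in sgScramble and at 1188, 897 and 927 in sgKrt19 tumors. The groups overlapped only through sgKrt19 5, which lay above sgScramble 3. The log2 fold change was −0.40 (interval −0.73 to −0.082) and missed the threshold (limma adjusted p = 0.0541). On the recovered reads edgeR gave −0.42 (adjusted p = 0.0431) and DESeq2 gave −0.41 (adjusted p = 0.0314). Without sgKrt19 5 limma gave −0.53 (adjusted p = 0.0278), and without sgScramble 3 it gave −0.48 (adjusted p = 0.0369). Counts per gene do not separate the soluble decoy form of *Flt1* from the membrane receptor.

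The excess of *Flt1* over *Kdr* was smaller in all 3 sgKrt19 tumors than in any control. On the log2(value + 1) scale *Flt1* exceeded *Kdr* by 1.93, 1.86, 1.33 and 1.84 in the sgScramble tumors and by 0.79, 0.41 and 0.62 in the sgKrt19 tumors. All sgKrt19 differences were below all control differences, and sgScramble 3, the control with the most muscle transcript, was the control nearest to them. The group difference was −1.13, with means of 1.74 ± 0.274 and 0.61 ± 0.193 (exact two-sided permutation p = 0.0571, adjusted over 8 differences 0.152). With 4 against 3 tumors 0.0571 is the smallest p that this test can give, so it cannot pass the threshold. Without sgScramble 3 or any other single library the group difference was −1.27 to −1.03.

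Transcripts of endothelial cells as a whole were then compared, because all receptors of the axis are made mainly or partly by these cells. Of 16 blood endothelial genes, all tested, 7 rose and none fell, against 17.9% called as higher over all genes tested, with a median log2 fold change of 0.53. The 9 others did not pass the limma test. *Emcn*, a sialomucin of capillaries and veins, rose from 391 ± 60.6 to 695 ± 143 (log2 fold change 0.82, limma adjusted p = 0.00653). *Clec14a* (0.78), *Egfl7* (0.69), *Mmrn2* (0.63) and *Pecam1* (0.48) also rose, whereas the endothelial cadherin *Cdh5* had a log2 fold change of 0.42 that did not pass (adjusted p = 0.0930). The number of these genes called as higher was 4 without sgKrt19 5, 2 without sgKrt19 8 and 1 with scaling by library size only. That number was 10 by DESeq2, 10 without sgScramble 3 and 9 without sgKrt19 6. *Vwf* was called as lower without sgScramble 1. *Pecam1* lost its call without sgScramble 2 (adjusted p = 0.0648), sgKrt19 5 (0.0673) or sgKrt19 8 (0.0555), *Egfl7* without sgKrt19 5 (0.0601) or sgKrt19 8 (0.0593), and *Clec14a* without sgScramble 4 (0.0566) or sgKrt19 8 (0.0715). The muscle transcripts moved with them, and their part in the endothelial and *Kdr* values was not tested. Among controls sgScramble 3, with 76.7 CPM of muscle transcript, had the highest *Kdr*, and among sgKrt19 tumors sgKrt19 8, with 760 CPM, had the lowest.

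The mean log2(value + 1) of the 16 endothelial genes was 8.41, 8.51, 8.84 and 8.69 in sgScramble and 9.22, 8.89 and 9.18 in sgKrt19 tumors, higher in all 3 edited tumors by 0.49 on average. Set against this mean, *Kdr* differed by 0.016 ± 0.087 in sgScramble and 0.26 ± 0.231 in sgKrt19 tumors. These *Kdr* groups overlapped, and the difference of 0.24 did not pass (exact two-sided permutation p = 0.114, adjusted 0.183). *Flt1* exceeded the same mean by 1.75 ± 0.302 in sgScramble and by 0.87 ± 0.165 in sgKrt19 tumors, without overlap (difference −0.89, exact p = 0.0571, adjusted 0.152). For *Flt4* the difference of the groups was −0.45 (exact p = 0.114, adjusted 0.183) with overlap, and for *Tek* it was −0.33 (exact p = 0.0571, adjusted 0.152) without overlap. When single libraries were left out the group difference was 0.12 to 0.34 for *Kdr*, lowest without sgKrt19 6, and −0.42 to −0.16 for *Tek*, nearest to 0 without sgKrt19 5. It was −1.04 to −0.80 for *Flt1* and −0.58 to −0.33 for *Flt4*.

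**Figure D2:**
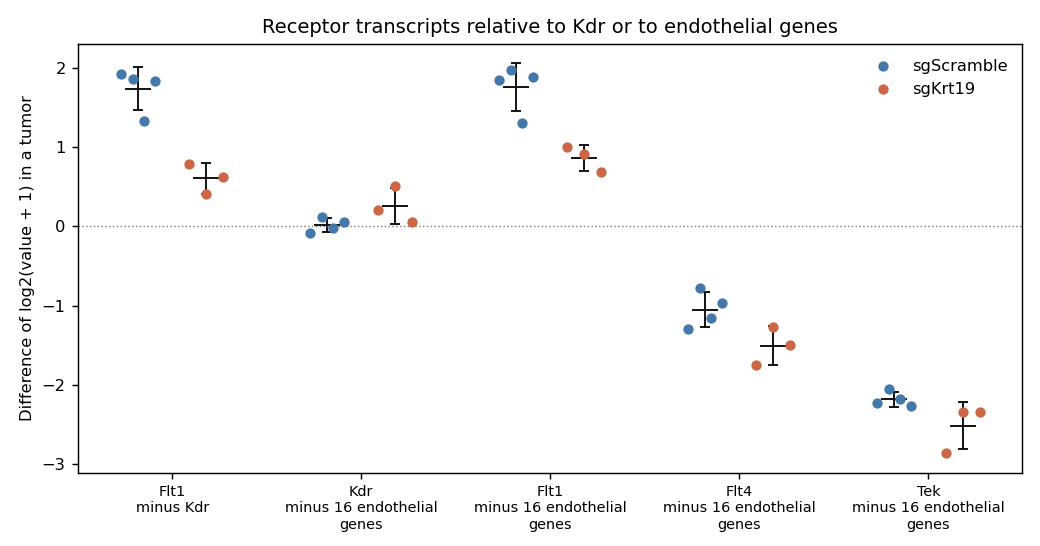
Differences of log2(value + 1) within a tumor (vertical axis) for *Flt1* minus *Kdr* and for each receptor minus the mean of 16 endothelial genes, with 1 point per tumor and the group mean with 1 SD. *Flt1* minus *Kdr* is 1.33 to 1.93 in the 4 sgScramble tumors and 0.41 to 0.79 in the 3 sgKrt19 tumors, and the receptor differences are lower in sgKrt19 tumors except for *Kdr*.

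The angiopoietins and TIE2 did not pass the test in either direction. *Angpt1* (chromosome 15, 42424723 to 42676977, minus strand) was at 54.8, 61.3, 106 and 78.8 in sgScramble and at 86.7, 87.0 and 72.5 in sgKrt19 tumors. The sgKrt19 values lay within the wide control range (log2 fold change 0.17, interval −0.39 to 0.72, adjusted p = 0.627), and 14.2% of the *Angpt1* exon bases lie under an antisense gene whose reads cannot be told apart here. *Angpt2* (chromosome 8, 18690263 to 18741562, minus strand) was at 395, 412, 393 and 435 in sgScramble and at 563, 334 and 464 in sgKrt19 tumors. Its control values were tight (409 ± 19.6) and its sgKrt19 values lay on both sides of them (454 ± 115), giving a log2 fold change of 0.12 (interval −0.26 to 0.50, adjusted p = 0.611) that was −0.052 without sgKrt19 5. *Tek* (chromosome 4, 94739289 to 94874976, plus strand) was at 71.5, 87.0, 100 and 84.4 in sgScramble and at 80.9, 93.0 and 113 in sgKrt19 tumors. These groups overlapped, with a log2 fold change of 0.15 (interval −0.30 to 0.60, adjusted p = 0.577). The small positive values of *Tek*, *Angpt1* and *Angpt2* turned negative, to −0.061, −0.048 and −0.096, when only library size was used for scaling, a choice that moved the median of all genes to −0.21. The excess of *Angpt2* over *Angpt1* within a tumor was 2.47 ± 0.425 in sgScramble and 2.43 ± 0.430 in sgKrt19 tumors on the log2 scale (exact two-sided permutation p = 0.914). That difference was smaller than the spread between tumors of a group. *Angpt4*, a further TIE2 ligand, was at 39.0 to 124 in sgScramble and 78.0 to 125 in sgKrt19 tumors and did not pass the test (log2 fold change 0.32, adjusted p = 0.539).

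*Tie1*, the orphan partner of TIE2 in endothelial cells, was the 1 gene of 14 other tested axis genes that rose. It was at 402, 461, 674 and 606 in sgScramble and at 787, 726 and 923 in sgKrt19 tumors. The groups were apart, and on the log2 scale *Tie1* rose by 0.62 (SE 0.185, limma adjusted p = 0.0267). The *Tie1* call was lost without sgScramble 2 (adjusted p = 0.0734), sgKrt19 5 (adjusted p = 0.0622) or sgKrt19 8 (adjusted p = 0.0927), and with scaling by library size only (0.41, adjusted p = 0.142).

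Coreceptors and modulators of the axis were compared in the same way. Of the 14 other axis genes tested, 7 fell, 1 rose and 6 did not pass the test. Over all genes tested 16.0% were called as lower and 17.9% as higher. The median log2 fold change of the 14 was −0.53. Neuropilin-1 (*Nrp1*), a coreceptor of VEGFR2 for VEGF-A that is also made by tumor and myeloid cells, was at 868, 1185, 1062 and 1562 in sgScramble and at 512, 493 and 449 in sgKrt19 tumors. All 3 edited tumors were far below the lowest control (log2 fold change −1.24 ± 0.179, SE; limma adjusted p = 0.000801). *Ptprb*, which encodes the endothelial phosphatase VE-PTP that acts on TIE2, was at 1013, 1594, 1059 and 1948 in sgScramble and at 635, 669 and 480 in sgKrt19 tumors. *Ptprb* fell by 1.20 on the log2 scale with no overlap (limma adjusted p = 0.00360), although 7 of the 16 blood endothelial genes rose. *Plxnd1*, the receptor of semaphorin-3E in vessels, fell by 1.06 on the log2 scale (limma adjusted p = 0.00207). Its ligand *Sema3e* fell by 0.83 (limma adjusted p = 0.00135), and *Sema3c* and the integrin subunit *Itgav* fell by 0.61 and 0.45. The calls of *Sema3c* and *Itgav* were lost without sgScramble 2, sgScramble 4 or sgKrt19 8. In these fits 5, 5 and 6 of the 14 were called as lower, with *Vegfd* called in addition in the last. The VEGF-C coreceptor *Nrp2*, at 1810 to 2938 in sgScramble and 1799 to 2703 in sgKrt19 tumors, had overlapping groups and a log2 fold change of −0.070 (adjusted p = 0.802).

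**Figure D3:**
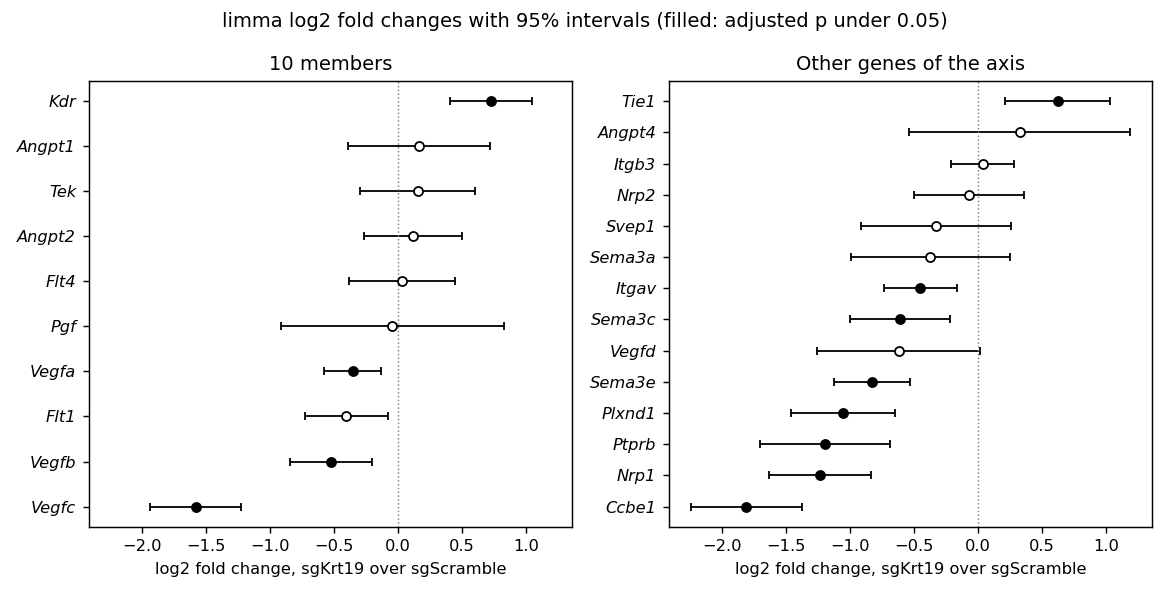
log2 fold changes of sgKrt19 over sgScramble (horizontal axes) with 95% intervals from limma for the 10 genes (left) and 14 other axis genes (right), where filled points have an adjusted p under 0.05. *Kdr* at 0.73 and *Tie1* at 0.62 are the filled points above 0, and *Vegfc* at −1.58 and *Ccbe1* at −1.81 are the lowest.

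Transcripts that VEGF signalling is known to raise, or that mark the tip cells of sprouting vessels, were examined next. Of 17 tested, 4 rose and 3 fell, against 17.9% called as higher and 16.0% as lower over all genes tested, with a median log2 fold change of −0.017. With scaling by library size only, 2 were called as higher and 6 as lower. The tip cell gene *Esm1* rose from 275 ± 51.7 to 424 ± 53.8 (log2 fold change 0.63, limma adjusted p = 0.0199), and the apelin receptor *Aplnr* rose by 0.56 (limma adjusted p = 0.0372). *Cxcr4* (0.90) and *Angptl4* (0.95), which other cells of a tumor also express, rose too. *Apln*, the tip cell ligand of *Aplnr*, fell from 525 ± 35.9 to 354 ± 34.2 (−0.57, limma adjusted p = 0.00769), as did *Pdgfb* (−0.68), which recruits pericytes, and the Notch target *Hey1* (−0.66). The Notch ligand *Dll4* was at 304 to 448 in sgScramble and 387 to 536 in sgKrt19 tumors and did not pass (log2 fold change 0.25, adjusted p = 0.287). The number called as higher was 2 without sgScramble 2, without sgKrt19 5 or without sgKrt19 8, and in each of these fits the *Esm1* call was lost at an adjusted p of 0.0569, 0.0734 and 0.0571. *Aplnr* kept its call only when sgScramble 3 or sgKrt19 6 was the library left out, with an adjusted p of 0.0679 to 0.128 without any of the other 5.

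Hypoxia genes were listed beside *Vegfa* because oxygen sensing controls it. Of 17 tested, 1 rose and 2 fell, with a median log2 fold change of 0.023. Over all genes tested 17.9% were called as higher and 16.0% as lower. Carbonic anhydrase 9 (*Car9*) was at 3507, 2171, 2586 and 1770 in sgScramble and at 6280, 6394 and 3218 in sgKrt19 tumors (log2 fold change 1.06, limma adjusted p = 0.0149). sgKrt19 8 lay below sgScramble 1, so the *Car9* groups overlapped, and the call was lost without sgKrt19 5 (adjusted p = 0.0619) or sgKrt19 6 (adjusted p = 0.0571). The HIF partner *Arnt* fell by 0.68 on the log2 scale (limma adjusted p = 0.00195), and the collagen hydroxylase *P4ha1* fell by 0.52 (limma adjusted p = 0.0479). *Hif1a* (−0.38, adjusted p = 0.0894), *Epas1* (0.20, adjusted p = 0.313) and *Slc2a1* (0.023, adjusted p = 0.948) did not pass, and *Epas1* and *Slc2a1* turned to −0.013 and −0.19 with scaling by library size only. *Hif1a* was called as lower with that scaling (−0.60, adjusted p = 0.0121) and without sgScramble 3 (−0.48, adjusted p = 0.0399). The *P4ha1* call was lost without sgScramble 1, 2 or 4 or sgKrt19 6 or 8, at an adjusted p of 0.0830 to 0.173. The number of hypoxia genes called as higher was 0 to 3, and the number called as lower 1 to 3, when single libraries were left out. With scaling by library size only 4 were called as lower, and by edgeR and by DESeq2 2 were called as higher.

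Other cell types that could carry axis transcripts were examined through fixed marker lists. The counts of each list stand beside 17.9% called as higher and 16.0% as lower over all genes tested. Of 8 pericyte genes tested 3 rose and none fell, with a median log2 fold change of 0.46. The NG2 proteoglycan gene *Cspg4*, at 457 ± 64.5 and 1336 ± 67.6, had the largest change of the pericyte list (1.56, limma adjusted p = 6.15e-05), followed by *Kcnj8* (0.75) and *Rgs5* (0.62), while *Pdgfrb* had −0.37 and did not pass (adjusted p = 0.219). Summed pericyte transcript overlapped between the groups at 143 to 240 and 177 to 188 CPM. Of 8 macrophage genes 3 rose, all of the complement C1q complex (*C1qa*, *C1qb* and *C1qc*, 0.42 to 0.57), and with scaling by library size only none of these 3 calls held (adjusted p of 0.0878, 0.0572 and 0.235). In the same list *Mrc1*, the mannose receptor, fell by 0.50 on the log2 scale, whereas *Adgre1* had a log2 fold change of 0.019 (adjusted p = 0.942). Macrophage transcript summed to 460 to 670 and 540 to 629 CPM. Of 6 tested neutrophil genes 5 rose, led by *S100a8* (1.50) and *S100a9* (1.44), at a summed 9.39 to 15.0 and 21.4 to 26.6 CPM. None of 8 fibroblast genes passed the limma test (median −0.13), and neither did any of 3 tested adipocyte genes (median −0.59). Of 8 epithelial genes 4 rose, *Krt18* (0.97), *Krt8* (0.91), *Krt20* (0.86) and *Cdh1* (0.55), and *Krt19* fell, at a summed 3694 to 4849 and 4968 to 5919 CPM. The other 3 did not pass, *Krt7* at −1.03 (limma adjusted p = 0.115), *Cldn4* at −1.23 (0.149) and *Epcam* at 0.064 (0.943). All 13 muscle genes rose, with a median log2 fold change of 7.30, and 4 of them were at 0 in at least 1 library. Several muscle genes, among them *Ckm*, *Myh1*, *Myh4* and *Actn2*, were below 10 in all controls but sgScramble 3. They passed the filter on low values only through the sgKrt19 tumors, which favoured a rise. *Retnlg* of the neutrophil list likewise passed only through the sgKrt19 tumors. When single libraries were left out, 2 to 3 pericyte, 1 to 3 macrophage and 3 to 5 neutrophil genes were called as higher. Calls were lost for *Kcnj8* without sgScramble 2, sgScramble 4 or sgKrt19 5 (adjusted p from 0.0569 to 0.104), for *C1qa* without sgKrt19 5 (0.0540), for *C1qc* without sgScramble 2, sgScramble 3, sgKrt19 5 or sgKrt19 6 (0.0637 to 0.102) and for *Mrc1* without sgScramble 2, sgScramble 4, sgKrt19 5 or sgKrt19 8 (0.0718 to 0.123). The part of these transcripts in the values of the axis genes was not tested.

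Levels of the 10 genes were compared with each other per kilobase of exon, which is normalized reads divided by exon length. That length joins all annotated exons of a gene. Which isoforms were expressed was not examined, so an order between genes depends on this choice. In sgScramble tumors *Vegfa* (1337 ± 90.5) and *Vegfb* (648 ± 75.0) led, without overlap with each other or with *Pgf* (151 ± 35.3). The ranges of *Pgf* and *Vegfc* (139 ± 15.4) overlapped, as did those of *Vegfc* and *Angpt2* (111 ± 5.31) and of *Angpt2* and *Flt1* (98.3 ± 13.4). Such ranges ignore that the genes were measured in the same tumors, and the order within single tumors was not compared for genes with overlapping ranges. *Kdr* (44.0 ± 6.23) came next and apart from its neighbours, and *Flt4* (23.1 ± 4.31), *Tek* (18.2 ± 2.52) and *Angpt1* (14.4 ± 4.39) followed with overlapping ranges. In sgKrt19 tumors the order began with *Vegfa* (1046 ± 36.2), *Vegfb* (453 ± 75.5), *Pgf* (174 ± 136) and *Angpt2* (123 ± 31.1), and *Pgf* overlapped with *Angpt2*. *Flt1* (74.4 ± 11.9) and *Kdr* (72.5 ± 5.08) overlapped there, where *Kdr* had been below *Flt1* in every control. *Vegfc* moved from the fourth place in sgScramble to the seventh, at 46.1 ± 5.46, above *Flt4* (23.3 ± 1.78), *Tek* (20.3 ± 3.49) and *Angpt1* (15.8 ± 1.60), of which *Flt4* and *Tek* overlapped.

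**Figure D4:**
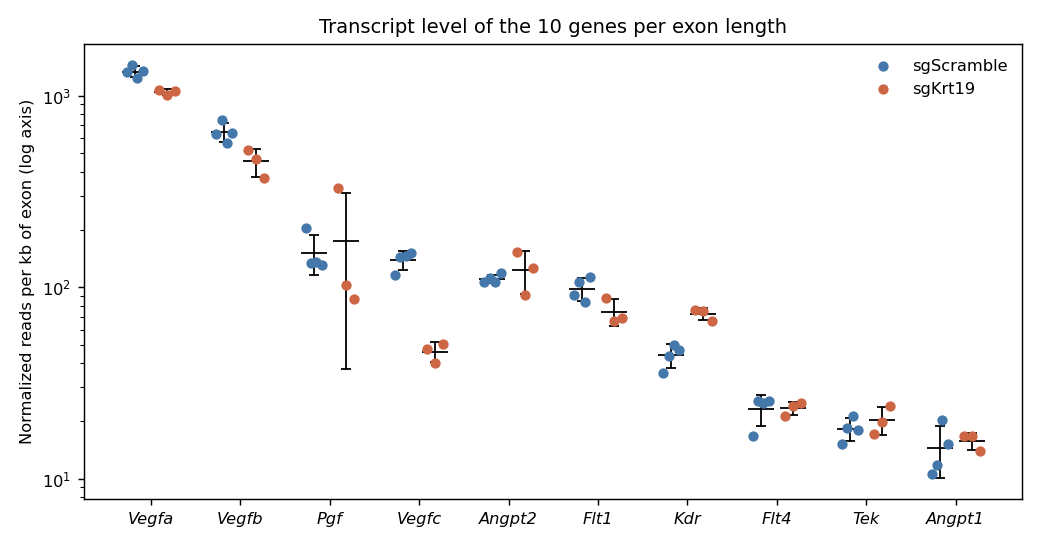
Normalized reads per kilobase of exon (vertical log axis) of the 10 genes, ordered by the sgScramble mean, with 1 point per tumor and the group mean with 1 SD. *Vegfa* leads at 1337 and 1046 in the groups, and *Vegfc* drops from 139 to 46.1. On this scale *Kdr* overlaps *Flt1* in the sgKrt19 tumors.

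Genes with a pattern most like 4 of the members were found by Pearson correlation of log2(value + 1) over the 7 libraries, which share the group difference, so these are descriptions only. For *Vegfa* they were *March7* (r = 0.994, listed in the table under a date in place of its symbol), *Chsy3* (0.992) and *Gnpda1* (0.990), and 160 genes reached r = 0.95. For *Kdr* they were *Thbs4* (0.994), *Diaph1* (0.989) and *Tmem181c-ps* (0.981), with 42 genes at 0.95 or more. *Tek* had 3 such genes, *Pkmyt1* (0.974), *Leng9* (0.971) and *Pmm2* (0.960), and *Angpt2* had none, its nearest being *Il3ra* (0.939), *Tmem38a* (0.926) and *Tmem161a* (0.911). Leaving out the 2 libraries farthest from the median of *Angpt2* lowered r for *Tmem161a* to 0.36, while r for *Thbs4* with *Kdr* was 0.99 after the same step.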

How the data were processed

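RNA from 7 tumors was sequenced as single reads after 12 cycles of cDNA amplification, and the labels name polyA RNA whereas the study names a stranded total RNA kit. The authors deposited 1 table with a signal per gene and library, which is the read count divided by a size factor of the library. Per the labels the build was mm10, and the aligner, the counter and the use of strand are not given in the sources used here. Multiplied back by that factor, 100% of values came out as whole reads to within 0.01 read. Of the gene identifiers, 37095 (97.6%) had the same version in GENCODE M21, which gave positions, overlaps and exon lengths. Where a symbol stood in 2 rows, the first was used.

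Genes that reached a value of 10 in 3 or more libraries were tested with limma 3.58.1 (lmFit and eBayes with a trend, R 4.3.3) on log2(value + 1), with the group as the single covariate. A gene that is low in 1 group could pass this filter through the other group alone. P-values were adjusted over all genes tested by the Benjamini-Hochberg method and called under 0.05. Because 1 was added before taking logs, fold changes of low genes are understated. Differences within a tumor were compared by exact two-sided permutation over 35 divisions of the libraries and adjusted over 8 differences. edgeR 4.0.16 and DESeq2 1.42.0 were run on the recovered reads, and pseudocounts, filters, scaling, the trend and each library were varied. The fits were tested on simulated data.

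The members, the marker lists and the alternatives were chosen with earlier results of these data known. Genes named were the 10 members, *Krt19*, a fixed set from the lists, up to 4 called genes in each direction of a list with the largest change, and for 4 members the 3 genes most like them with a mean value of at least 100. *Adamts3*, *Sema3e*, *Sema3c*, *Itgav*, *Svep1*, *Cldn5*, *Pdpn*, *Reln* and *Vwf* were named after their values were seen. Library batches are not given by the labels, so a batch that follows the groups cannot be told apart from them.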

Additional observations from a re-analysis of the deposited data

Results flagged for a closer look

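In 9 of 74 measures searched (12.2%), 1 sgScramble tumor stood apart from the other 3 by Dixon's 95% criterion. Chance gives about 1 in 20 for independent values with a normal distribution. The measures were related to each other and gene values were searched without taking logs, so whether 12.2% is an excess cannot be told. The sgKrt19 group, with 3 tumors, was not searched.

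Of these, 2 belonged to sgScramble 1 and to genes of the axis. Its normalized read count was 592 for *Pgf*, against 378 to 393 in the other controls, and 137 for *Flt4*, against 205 to 210. A further 6 belonged to sgScramble 3. This tumor had 222 for *Myh1* (0.93 to 1.85 in the other controls), 199 for *Myh4* (0 to 0.93), 58.5 for *Actn2* (0 to 0.93), 141 for *Ckm* (0 to 3.71) and 934 for *Acta1* (21.4 to 26.9), all muscle genes. Its log2 difference of *Flt1* minus *Kdr* was 1.33, against 1.84 to 1.93. In sgScramble 4 the apelin transcript *Apln* was at 579, against 503 to 513.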

How the results depend on the processing

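No paired analysis was possible because the groups share no replicate number. The changes of *Krt19*, *Vegfc* and *Kdr* kept their direction and their call under all alternatives run. With library size as the only scaling, 2187 genes were called as higher and 5705 as lower (3820 and 3420 with the deposited scaling), *Tie1* lost its call and so 0 of the other axis genes were called as higher, as also without the trend, and log2 fold changes were −0.62 for *Flt1* (called), −0.18 for *Flt4*, −0.061 for *Tek*, −0.048 for *Angpt1*, −0.096 for *Angpt2*, −0.013 for *Epas1*, −0.19 for *Slc2a1*, −0.20 for *Adgre1* and −0.15 for *Epcam*. edgeR gave 0.17 for *Pgf*, −0.42 for *Flt1* (called), −0.00064 for *Flt4*, −0.0037 for *Adgre1* and −0.017 for *Epcam*, and DESeq2 gave 0.18 for *Pgf*, −0.41 for *Flt1* (called), −0.00010 for *Adgre1* and −0.0098 for *Epcam*. The cause of these changes was not tested.

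Leaving out single libraries gave 2624 to 4102 genes called as higher and 2257 to 3637 as lower, with the fewest lower without sgScramble 2, and 0 to 1 other axis genes called as higher. It gave log2 fold changes of −0.39 to −0.31 for *Vegfa*, −0.63 to −0.39 for *Vegfb*, −0.65 to 0.31 for *Pgf*, −0.53 to −0.33 for *Flt1*, −0.12 to 0.094 for *Flt4*, −0.052 to 0.32 for *Angpt2*, −0.21 to 0.086 for *Nrp2*, −0.26 to 0.30 for *Slc2a1*, −0.41 to 0.29 for *Lyve1*, −0.070 to 0.16 for *Adgre1*, −0.27 to 0.11 for *Pdgfra* and −0.28 to 0.70 for *Epcam*. The group difference of *Angpt2* minus *Angpt1* was −0.24 to 0.20 and that of *Pgf* minus *Vegfa* was −0.27 to 0.67. Other named genes changed their call but not their direction in some fits.

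All members lay above the floor of 3 reads in every library, with a lowest count of 59 reads for *Angpt1*. Whether depth limited their calls was not tested. Reads of *Prox1* and *Adamts3* were near the floor, and neither gene passed the filter on low values.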

Other observations

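The log2 difference of *Pgf* minus *Vegfa* within a tumor was −3.26, −3.99, −3.74 and −3.92 in sgScramble and −2.26, −3.85 and −4.15 in sgKrt19 tumors. The group difference of 0.31 did not pass the test (exact two-sided permutation p = 0.743, adjusted over 8 differences 0.849), and the value of sgKrt19 5 lay above all others.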
